A study of Homo sapiens with 6 samples.

Results

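HCT116, a human line grown from a colon cancer, is an established cell line. The arrays compared 54 genes of the nuclear pore and of nuclear transport between 3 arrays of HCT116 cells stably carrying a lentiviral hairpin (shRNA) against NFX1-91 and 3 arrays of the same line with a hairpin against β-galactosidase. The lentiviral vector was FUGW in both groups, and NFX1-91 is a splice form of the zinc finger gene NFX1. The genes were chosen by symbol: every NUP gene with a number, the KPNA, KPNB, TNPO, IPO and XPO families without XPO5, and a fixed set of further pore and Ran cycle genes. They are 54 of the 11963 genes that had a probe set annotated to 1 gene, and each is read here by the brightest of its probe sets. Of the genes grouped by role here, 5 more had no probe set of their own (IPO11, KPNA7, NUP35, NUP210L and NUTF2), and NUP62CL, a gene related to NUP62, came in by its symbol alone. Whether the cells of a group were a pool or a clone, and how many hairpins were used, is not said in the labels. Nor do they say whether each array had a culture of its own, so the p-values rest on array-to-array spread that may be only technical.

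Nuclear pores are large channels through the nuclear envelope, built of rings of scaffold nucleoporins around a central channel of nucleoporins rich in phenylalanine-glycine (FG) repeats. Importins and exportins carry proteins and RNA through this FG mesh. The small GTPase Ran, kept in its GTP form inside the nucleus, releases cargo from importins and loads it onto exportins.

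In cells with the NFX1-91 hairpin the FG nucleoporin NUP58 rose 3.88-fold, the exportin XPO4 1.89-fold and the importins IPO8, KPNA4 and KPNA1 1.61-fold, 1.54-fold and 1.45-fold in mean signal, while IPO4 fell 1.71-fold. The rest of the genes differed by less. By limma at an adjusted p under 0.05, 16 of the 54 genes were higher, 11 were lower and 27 did not pass; over all genes 14.7% were higher and 17.8% lower. RAN counts among the 16 by its brighter probe set, while its other probe set was lower. Called in either direction were thus 27 of 54, against 32.5% of all genes, but 51 of the 54 lay in the brighter part of all genes, above the 50th percentile. With genes below the 40th percentile of brightness left out, 53 of the 54 remained, of which 30 were called, or 56.6%, against 55.1% of the 7178 genes left. In that setting 34.0% of them were higher and 22.6% lower, against 25.3% and 29.8% of the genes left. The share of genes called was thus near that of the genes left, although the median of the 54 lay at the 85th percentile of brightness over all genes. The median log2 fold change was 0.05, and 0.00 over all genes. A log2 fold change of at least 0.5 with a call was reached by 6 of the 54 genes (11.1%), against 12.1% of all genes: 5 of them were higher, against 4.46%, and 1 was lower, against 7.60%. No overlap between the groups of arrays was seen for 32 of the 54 genes, or 59.3%, against 43.5% of all genes, dim ones included. This share was not computed with dim genes left out. Counts of genes by role below are to be read beside these shares of all genes. Fold changes on the log2 scale are of signal + 16, which understates the change of dim genes. Below, a bare number after "rose by", "fell by" or "read" beside a gene is its log2 fold change, except where signals in single arrays are listed.

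**Figure D1:**
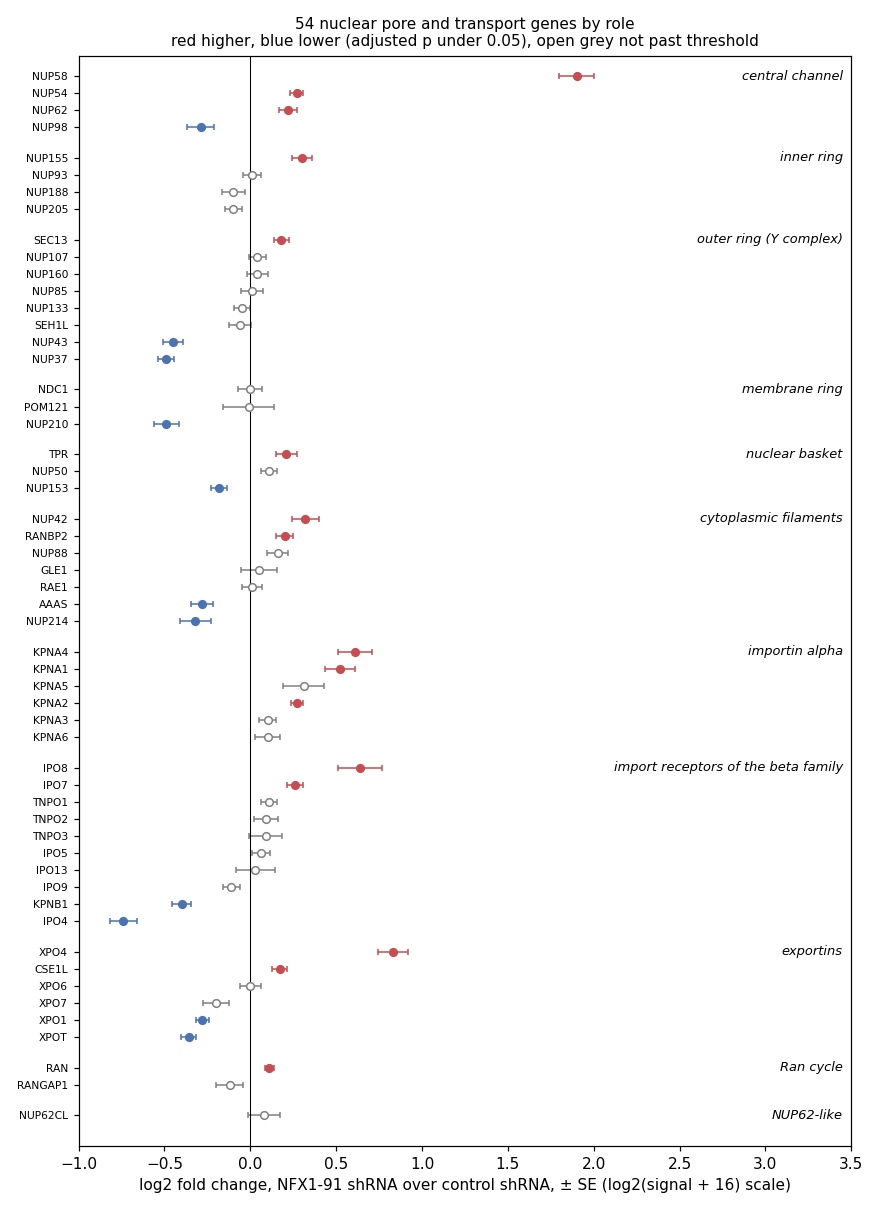
Log2 fold change (NFX1-91 shRNA over control shRNA, log2(signal + 16) scale) of each of the 54 genes, grouped by role; points are the fitted values, bars are 1 SE, n = 3 arrays per group, and colour marks an adjusted p under 0.05. NUP58 at 1.90 stands far to the right of all others, which lie between -0.74 and 0.83.

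The array signal used throughout is the deposited intensity scaled to an array mean of 500. The hairpin's target was read by 3 NFX1 probe sets, none of which is known here to tell NFX1-91 from its other splice forms. The brightest ran from 139 to 159 in control arrays and from 124 to 139 in NFX1-91 shRNA arrays (log2 fold change -0.13, SE 0.095, adjusted p = 0.362). The dimmest ran from 16.8 to 24.4 and from 4.56 to 8.87 and was the only one past the threshold (adjusted p = 0.0137 over probe sets). At means of 19.6 and 7.42 it lay near or below the offset of 16, too dim for a firm reading of the target. Of 10 colon epithelial markers VIL1 and LGALS4 had a mean signal below 16, and the keratins KRT8 and KRT18 and EPCAM were bright. The summed epithelial signal ran from 23848 to 24680 in control arrays and from 28463 to 28611 in the others. KRT18 and KRT8 rose by 0.54 and 0.35 on the log2 scale, CDH1 fell by 0.50 and KRT20 by 0.60, and of the 10 markers 2 rose and 4 fell. Summed signals of 8 fibroblast markers were 289 to 377 and 321 to 376, with PDGFRB, LUM and FAP below 16 and 0 called. Those of 6 blood markers were 99.2 to 125 and 122 to 167, with PTPRC, CD14 and LYZ below 16. HBB, at 31.9 ± 3.33 and 49.9 ± 8.72 (SD, n = 3), rose by 0.45; it did not pass in 4 of the 6 fits that left out an array. ACTB rose by 0.19, and GAPDH read 0.08 (adjusted p = 0.0637; 0.0277 without control array 1). The part of these shifts in the results was not tested.

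Promoter sequences are shown for the 2 largest rises and the largest fall, to set their letters side by side. RefSeq on GRCh38.p14 listed a promoter for 48 of the 54 genes (not for GLE1, KPNA4, KPNA5, KPNB1, NUP43 and XPO7). The 250 bases before the first listed start are shown for NUP58 (chr13:25301375-25301624, plus strand), XPO4 (chr13:20902775-20903024, minus strand) and IPO4 (chr14:24188817-24189066, minus strand). Capitals mark the E-box CACGTG, read by MYC and USF proteins, and the ETS core CCGGAAGT, on either strand.
NUP58: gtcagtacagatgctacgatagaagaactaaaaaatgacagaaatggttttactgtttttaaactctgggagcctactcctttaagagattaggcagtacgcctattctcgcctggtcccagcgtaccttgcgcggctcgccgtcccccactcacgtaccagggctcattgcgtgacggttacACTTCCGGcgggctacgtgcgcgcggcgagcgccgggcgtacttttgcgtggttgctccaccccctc
XPO4: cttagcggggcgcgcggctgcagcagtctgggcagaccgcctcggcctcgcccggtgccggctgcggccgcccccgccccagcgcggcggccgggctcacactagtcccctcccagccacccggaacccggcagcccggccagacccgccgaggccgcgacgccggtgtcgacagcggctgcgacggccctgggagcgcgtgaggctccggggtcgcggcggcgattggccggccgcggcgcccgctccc
IPO4: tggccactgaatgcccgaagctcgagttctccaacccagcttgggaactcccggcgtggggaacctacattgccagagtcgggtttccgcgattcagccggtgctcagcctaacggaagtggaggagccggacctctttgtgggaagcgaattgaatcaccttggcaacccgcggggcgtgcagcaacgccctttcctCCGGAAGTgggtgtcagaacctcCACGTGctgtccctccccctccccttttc
NUP58 held an ETS core in reverse orientation 67 bases before the start. IPO4 held an ETS core and, nearer to the start, an E-box, first bases 52 and 29 before it. XPO4 held neither. Counting both strands, the E-box was in 7 of 48 promoters of the genes (14.6%) and in 8.35% of 9562 promoters of genes tested. The ETS core was in 7 (14.6%) against 5.50%. The CCAAT box, CCAAT, was in 20 (41.7%) against 35.6%, and the GC box GGGCGG in 27 (56.2%) against 60.6%. Over all 27305 listed promoters the shares were 6.49%, 3.64%, 33.0% and 42.3%. No motif of the 4 contains another. The ETS core was in 3 of 15 promoters of genes that rose, 1 of 9 of genes that fell and 3 of 24 of the others. The E-box was in 2, 1 and 4 of them. These calls are by the brightest probe set, and RAN, with an E-box, is counted as risen although its other probe set fell. A match is a run of letters and not a binding site, and no test was made of these shares.

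NUP58 builds, with NUP54 and NUP62, the FG complex that lines the middle of the channel. Its only probe set read 295, 216 and 237 in control arrays and 927, 937 and 1039 in NFX1-91 shRNA arrays. All NFX1-91 shRNA arrays were far above all control arrays. The mean rose from 249 ± 40.7 to 968 ± 62.0 (SD, n = 3 per group), or by 1.90 on the log2 scale (SE 0.102, adjusted p = 1.48e-06). It was the 1 gene of the 54 that rose at least 2-fold, against 0.518% of all genes, and 0 of the 54 fell that far, against 1.30%. The value ran from 1.73 to 2.02 over 16 alternatives, where the adjusted p reached 0.000328 at most. With a single probe set, the choice of probe set could not be varied.

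The partners of NUP58 had smaller changes. NUP54 read 1572, 1518 and 1536 in control arrays and 1889, 1845 and 1850 in NFX1-91 shRNA arrays, and it rose by 0.27 (SE 0.038, adjusted p = 0.000444). NUP62 read 784, 753 and 725 against 863, 912 and 870, and it rose by 0.22 (SE 0.052, adjusted p = 0.00823). Neither gene's groups overlapped. The call of NUP62 was lost without NFX1-91 shRNA array 2 (0.20, adjusted p = 0.0541). The other NUP54 probe set, at means of 7.96 and 6.10, was too dim to read a change, and with it in place of the brightest the value was -0.12. In each array the log2 signal of NUP58 was set against the mean of NUP54 and NUP62. This difference lay between -2.22 and -1.86 in control arrays and between -0.46 and -0.29 in NFX1-91 shRNA arrays. It was 1.65 higher in the latter (exact two-sided permutation p = 0.1, the smallest that 3 against 3 arrays allow). NUP58 had been seen to rise before this comparison was set. NUP98, an FG nucleoporin that works with RAE1 in RNA export and whose transcript also encodes the outer ring protein NUP96, went the other way, from 669, 808 and 722 to 559, 603 and 626. Its groups did not overlap, and it fell by 0.29 (SE 0.076, adjusted p = 0.0147). That call was lost without control array 2 (adjusted p = 0.0653), without NFX1-91 shRNA array 1 (0.0583) or 2 (0.0541) and without a variance trend (0.0550). So all 4 genes of the channel were called, 3 higher and 1 lower. Of all genes 32.5% were called, and 55.1% with dim genes left out.

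**Figure D2:**
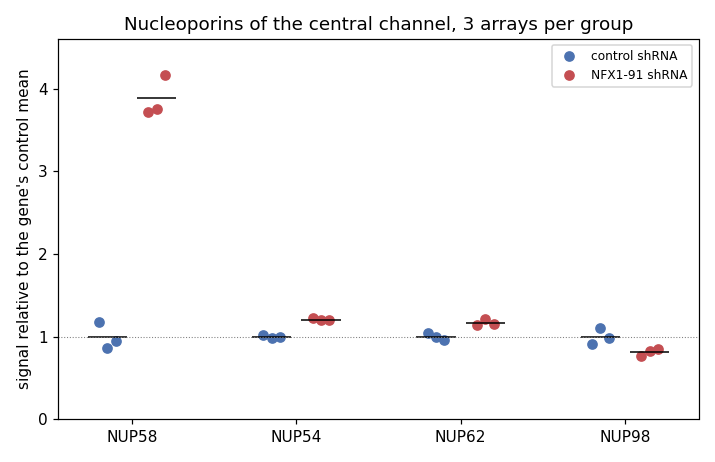
Signal of each array divided by the gene's own control mean for the 4 nucleoporins of the central channel; points are arrays (blue control shRNA, red NFX1-91 shRNA), black lines are means of 3 arrays. NUP58 sits near 3.88 in the NFX1-91 shRNA arrays, NUP54 and NUP62 at 1.21 and 1.17, and NUP98 at 0.81.

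Most scaffold genes of the pore did not pass the threshold, and neither did 8073 of all 11963 genes. Of the 8 outer ring (Y complex) genes 1 was higher, 2 lower and 5 did not pass, with a median log2 fold change of -0.02. NUP37 and NUP43, small propeller proteins of this complex, had the largest differences. NUP37 went from 2066 ± 24.0 to 1470 ± 84.7 and fell by 0.49 (SE 0.048, adjusted p = 4.56e-05). NUP43 went from 1179 ± 42.4 to 857 ± 62.9 and fell by 0.45 (SE 0.060, adjusted p = 0.000288). Both calls held in 16 of 16 alternatives, but each gene had 1 probe set, so the choice of probe set could not be varied. SEC13, which also coats vesicles that leave the endoplasmic reticulum, rose by 0.18 (adjusted p = 0.00916; 0.0678 without a variance trend). The other members read 0.04 for NUP107, 0.04 for NUP160, 0.01 for NUP85, -0.05 for NUP133 and -0.06 for SEH1L. For NUP160 the mean of its 3 probe sets read 0.41 (adjusted p = 0.00693). The dimmest of them, at 56.0 ± 9.62 and 94.3 ± 3.28, rose by 0.62, and the middle one read 0.56 and did not pass (adjusted p = 0.0656 over probe sets).

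Among 4 measured inner ring genes 1 was higher and 0 were lower by limma at the adjusted threshold. NUP155, a membrane-facing scaffold protein, rose by 0.30 (SE 0.057, adjusted p = 0.00281), from 616 ± 3.25 to 762 ± 47.5. The other scaffold proteins NUP93, NUP188 and NUP205 read 0.01, -0.10 and -0.10 and did not pass; for NUP205 the mean of its probe sets passed (-0.15, adjusted p = 0.0485). In the membrane ring, NUP210, a transmembrane nucleoporin, fell by 0.49 (SE 0.073, adjusted p = 0.00059), from 517 ± 17.8 to 363 ± 31.4. Of its 5 probe sets 3 were lower and the others did not pass, at -0.11 and 0.17. NDC1, a membrane anchor of the pore, read 0.00. POM121, another anchor, read -0.01, but its own probe set lay at a dim 37.8 ± 6.53 and 37.6 ± 7.05. A brighter probe set shared by POM121 and its near copy POM121C fell by 0.29 (adjusted p = 0.0108 over probe sets), from 1191 ± 108 to 966 ± 19.0.

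The basket on the nuclear side held a fall, a rise and a gene that did not pass. NUP153, an FG protein that anchors the basket, read 1161, 1163 and 1128 in control arrays and 968, 1033 and 1038 in the others. Its groups did not overlap and it fell by 0.18 (SE 0.047, adjusted p = 0.0139). The call was lost with centring on the array median (adjusted p = 0.0519), without a variance trend (0.0661) and without control array 2 (0.0597). TPR, which forms the basket's filaments, read 1147, 1031 and 981 against 1208, 1205 and 1229, again with no overlap. It rose by 0.21 (SE 0.059, adjusted p = 0.0228), and 7 of 16 alternatives lost the call. Among these were control arrays 2 and 3 left out (adjusted p = 0.0853 and 0.0843), NFX1-91 shRNA arrays 1, 2 and 3 left out (0.0569, 0.0761 and 0.0673) and the mean of its probe sets (0.345). NUP50, which helps release importin α, read 0.11 (adjusted p = 0.108) and passed without control array 1 (0.0165).

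On the cytoplasmic side 2 of 7 genes were higher, 2 lower and 3 did not pass. NUP42 and GLE1 act on the helicase that strips proteins from exported messenger RNA. NUP42 rose by 0.32 (SE 0.078, adjusted p = 0.00974) and GLE1 read 0.05. RANBP2, the large filament protein that binds Ran and SUMO-conjugated RANGAP1, rose by 0.20 (adjusted p = 0.0140); it has near-identical copies, the RGPD genes, so its reading is uncertain. A second probe set of RANBP2 rose by 0.36 and the third read -0.17, and the mean of all 3 did not pass (adjusted p = 0.0943), nor did the gene without control array 2 (0.0693) or a variance trend (0.0665). NUP214, a filament nucleoporin that docks export complexes, fell by 0.32 (adjusted p = 0.0200). That call was lost without control array 2 (adjusted p = 0.0902) and without NFX1-91 shRNA array 1 (0.0529) or 2 (0.0628). Its other probe set, at means of 0.782 and 5.31, lay far below 16. NUP88, the partner of NUP214, read 0.16 (adjusted p = 0.0698) and passed without control array 1 (0.0138). AAAS, mutated in triple A syndrome, fell by 0.28 (adjusted p = 0.00741) and RAE1, an RNA export factor, read 0.01.

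Importin α proteins bind the classical nuclear localization signal and hand the cargo to importin β, encoded by KPNB1. All 6 measured importin α genes read above 0, between 0.10 and 0.61. Of them 3 passed, all higher, where 14.7% of all genes were higher, or 25.3% with dim genes left out. In 5 the groups did not overlap, against 43.5% of all genes, dim ones included. KPNA4 read 350, 448 and 462 in control arrays and 630, 687 and 622 in NFX1-91 shRNA arrays, with control array 1 the lowest of its group. It rose by 0.61 (SE 0.098, adjusted p = 0.000958). The other KPNA4 probe set read 144 ± 7.87 and 131 ± 10.3, a log2 fold change of -0.12 that did not pass, and the mean of both was 0.24 (adjusted p = 0.0326). KPNA1 read 337, 321 and 413 against 518, 517 and 512, with no overlap, and rose by 0.52 (SE 0.088, adjusted p = 0.00135). Of the 6 KPNA1 probe sets 5 were higher, and all 6 lay between 0.37 and 0.72. KPNA2, the importin α of dividing cells, went from 5961 ± 210 to 7190 ± 155 and rose by 0.27 (SE 0.035, adjusted p = 0.000232), and its other probe set rose by 0.17. KPNA5 read 0.31 (adjusted p = 0.0737) and passed without control array 3 (0.0368), with quantile normalization (0.0435), with centring on the array median (0.0472) and with dim genes left out (0.0305). KPNA3 read 0.10 and KPNA6 0.10, the latter with a dimmer probe set that rose by 0.39.

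KPNB1 read 4262, 3962 and 3709 in control arrays and 3078, 3117 and 2834 in NFX1-91 shRNA arrays. The groups did not overlap, and it fell by 0.40 (SE 0.055, adjusted p = 0.000393), while KPNA4, KPNA1 and KPNA2 rose. Its 6 probe sets fell into 3 that were lower, at -0.40, -0.54 and -0.56, and 3 that did not pass, at 0.01, 0.06 and 0.08. The first 3, and the one at 0.01, carry the suffix of probe sets that can bind several transcripts, and with such probe sets left out KPNB1 read 0.06 (adjusted p = 0.490). Which KPNB1 transcripts each probe set reads was not tested.

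Of the 10 import receptors of the importin β family, KPNB1 included, 2 were higher and 2 lower. IPO8, which also binds Argonaute proteins, read 114, 136 and 162 in control arrays and 236, 237 and 192 in the others. Its groups did not overlap, and it rose by 0.64 (SE 0.129, adjusted p = 0.00392). IPO7, its close relative and a carrier of ribosomal proteins, rose by 0.26 (SE 0.046, adjusted p = 0.0015), and its 4 probe sets all rose, by 0.26 to 0.43. IPO4, a carrier of histones and ribosomal proteins, read 471, 437 and 457 against 242, 293 and 263. The groups were far apart, and it fell by 0.74 (SE 0.079, adjusted p = 7.19e-05). The others did not pass: IPO5 read 0.06, IPO9 -0.11, IPO13 0.03, TNPO1 0.11, TNPO2 0.09 and TNPO3 0.09. TNPO3 carries splicing factors and passed without control array 1 (0.21, adjusted p = 0.0301). Of the 5 probe sets of TNPO1, which carries hnRNP proteins, 1 rose by 0.50, from 538 ± 27.3 to 769 ± 65.7.

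**Figure D3:**
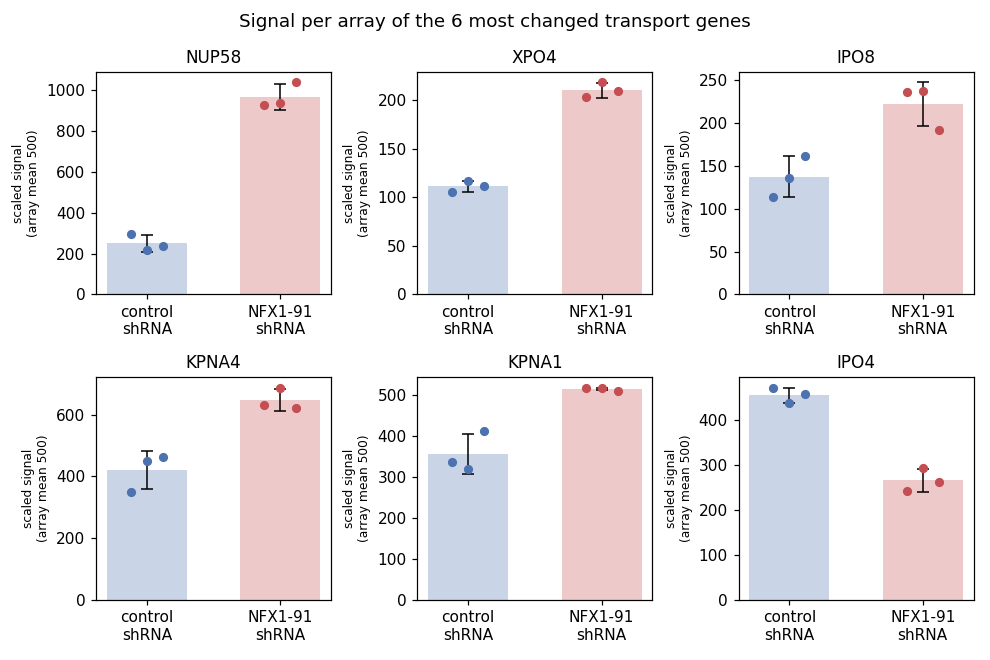
Scaled signal (array mean 500) in each array for the 6 genes called with an absolute log2 fold change of at least 0.5; points are arrays, bars are means and error bars the SD of 3 arrays. In all 6 genes the groups do not overlap, and IPO4 is the 1 gene with the lower signal in NFX1-91 shRNA arrays.

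Of 6 exportins 2 were higher, 2 lower and 2 did not pass. XPO1, the receptor for leucine-rich export signals, read 3468, 3507 and 3361 in control arrays and 2781, 2948 and 2789 in NFX1-91 shRNA arrays. The groups did not overlap, and it fell by 0.28 (SE 0.038, adjusted p = 0.000335). XPO4 exports eIF5A and SMAD3; it read 105, 117 and 111 against 203, 218 and 209. The ranges were well apart, and it rose by 0.83 (SE 0.087, adjusted p = 6.5e-05), which was 0.92 with no offset. XPOT, the exportin of transfer RNA, went from 1672 ± 44.8 to 1296 ± 53.5 and fell by 0.36 (SE 0.046, adjusted p = 0.00021). CSE1L, which returns importin α to the cytoplasm, rose by 0.17 (SE 0.044, adjusted p = 0.0141). The CSE1L call was lost without control array 2 (adjusted p = 0.0653), without NFX1-91 shRNA array 1 (0.0643) and without a variance trend (0.111), and a second bright probe set read -0.02. XPO6, the exportin of actin, read 0.00, and XPO7 read -0.20 (adjusted p = 0.0687; 0.00792 without control array 1).

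RAN was called in opposite directions by its 2 probe sets. The brighter read 7001, 6909 and 7026 in control arrays and 7551, 7488 and 7602 in NFX1-91 shRNA arrays, and rose by 0.11 (SE 0.026, adjusted p = 0.00859). The dimmer read 2783, 2638 and 2645 against 2148, 2261 and 2236, and fell by 0.28 (SE 0.040, adjusted p = 0.00108 over probe sets). The groups of arrays did not overlap for either, so no direction is given for the gene. Without a variance trend the brighter did not pass (adjusted p = 0.170). RANGAP1, which makes Ran hydrolyse its GTP, read -0.12 and did not pass. NUP62CL read 0.08.

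The probe sets give a check on the other calls too. Of the 54 genes 31 had several probe sets, 117 in all with those of the other 23 genes. By the fit over all probe sets 29 of the 117 were higher and 16 lower, where 12.0% and 13.7% of all probe sets were, dim ones included. Shares with dim probe sets left out were not computed. Of 14 called genes with several probe sets, 7 had a further one called in that direction (CSE1L, IPO7, KPNA1, KPNA2, KPNB1, NUP210 and RANBP2). For RAN another was called the opposite way, and for KPNA4, NUP54, NUP62, NUP98, NUP214 and TPR no other was called. Of 17 genes that did not pass, 3 had another probe set that did: KPNA6, NUP160 and TNPO1, all higher.

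**Figure D4:**
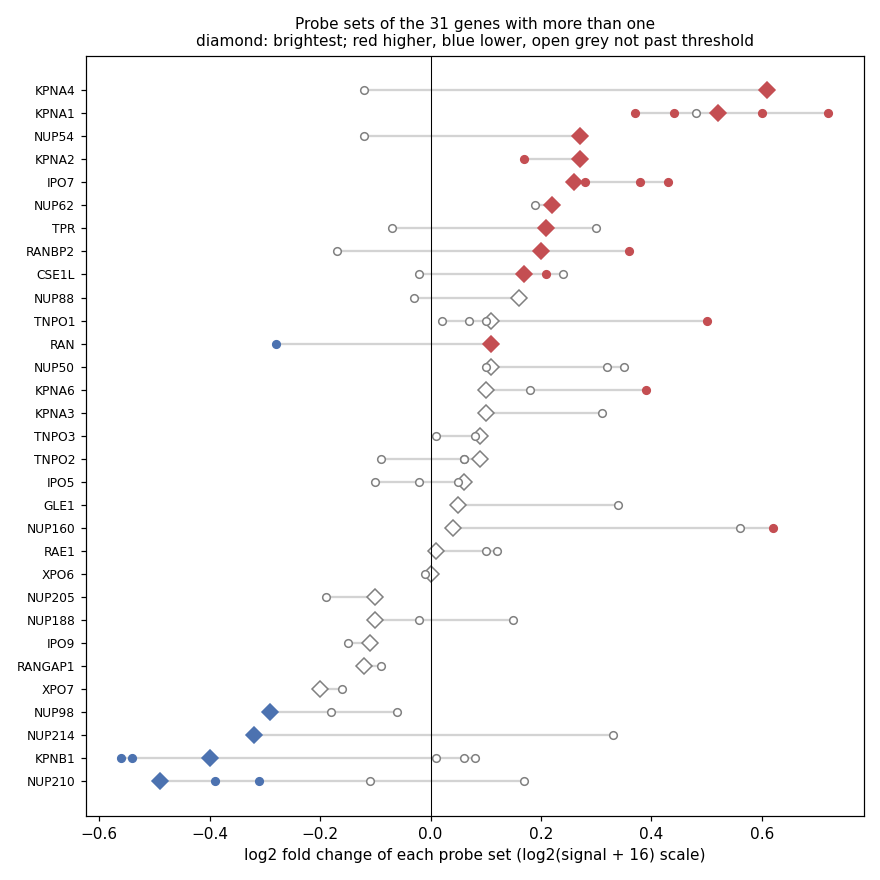
Log2 fold change of every probe set of the 31 genes with several; each row is a gene, the diamond is its brightest probe set, and red and blue mark an adjusted p under 0.05 over all probe sets (higher and lower). KPNA1 and IPO7 lie wholly to the right of 0, RAN has a called probe set on each side, and KPNB1 splits between -0.56 and 0.08.

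Other genes of transport and of the envelope came from lists chosen with earlier results known. Of 4 Ran regulators 3 were lower and 0 higher. For this list and those below, the shares over all genes were 17.8% lower and 14.7% higher. With dim genes left out they were 29.8% and 25.3%. The exchange factor RCC1, which charges Ran with GTP on chromatin, fell by 0.26 (adjusted p = 0.00117), from 1790 ± 55.1 to 1496 ± 40.1. RANGRF fell by 0.35 and RANBP3, a cofactor of XPO1, by 0.39, the latter reading 0.23 with shared probe sets left out. With the mean of its probe sets RANBP3 did not pass (-0.08, adjusted p = 0.508). Of 16 measured messenger RNA export genes, from 24 listed, 3 were higher and 6 lower, with a median log2 fold change of -0.02. The helicase DDX19A, a near-identical copy of the export helicase DDX19B, fell by 0.90 (SE 0.078, adjusted p = 2.18e-05), from 704 ± 19.8 to 371 ± 39.9. THOC6 of the THO complex fell by 0.86 and the export adaptor CHTOP by 0.50. THOC5 rose by 0.51, with -0.44 when shared probe sets were left out and 0.03 with the mean of its probe sets (adjusted p = 0.852). Of 15 nuclear envelope and lamina genes 2 were higher and 4 lower. Only the 4 called genes with the smallest adjusted p are named here. The linker protein SUN2 fell by 1.06, TOR1A by 0.42 and LEMD3 by 0.39, and lamin A/C (LMNA) rose by 0.39. AHCTF1 (ELYS), which seeds pore assembly on chromatin and was the 1 measured gene of 5 listed for pore assembly and SUMO, rose by 0.47 (adjusted p = 0.00111).

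Long genes read slightly higher than short ones over the whole series, and the 54 genes were set against this. Spearman's rho between genomic gene length and log2 fold change was -0.02 across them, and 0.13 across the 11953 genes with a length; all points share the same 6 arrays. Their median genomic length was 60710 bases, against 28857 for all genes.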

How the data were processed

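Biotin-labelled cRNA from total RNA was measured on Affymetrix arrays, per the labels' protocols. The deposited table gives intensity for 22215 probe sets on a linear scale, and each column sums to 1; the authors' probe summary and scaling are not given in these sources. Each array holds 397 to 451 repeats of 1 low value, and between 24.1% and 25.9% of its values lie below the offset. Values were multiplied to an array mean of 500 and log2(signal + 16) was taken, with no further normalization. The platform annotation gave 1 gene for 19064 probe sets, several for 1043 and none for 2108; all 54 symbols matched RefSeq by gene identifier. A gene was represented by its brightest probe set (mean log2 signal).

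The comparison used lmFit and eBayes of limma 3.58.1 (R 4.3.3), unpaired and two-sided, with a trend in the prior variance, adjusted by Benjamini-Hochberg over 11963 genes, or over 22215 probe sets where said, at a threshold of 0.05. The steps were tested on simulated data. Figures used Python 3.11.15 and matplotlib 3.10.9. The members and lists were chosen with earlier results of these data known. The naming rule gave array values to called genes with an absolute log2 fold change of at least 0.5 and to NUP58, NUP54, NUP62, NUP98, NUP153, TPR, KPNB1, RAN and XPO1, and named up to 4 genes per further list with the smallest adjusted p; other probe sets were named after their values were seen. Alternatives were quantile normalization, median centring, dim genes left out, offsets of 1 and 64, no offset (added after the data were seen), no variance trend, averaging the probe sets of a gene, shared probe sets left out, a replicate block and each array left out. Shared probe sets were left out only for genes that also had another probe set. A gene with shared ones only, such as XPO4, NUP155, NUP62 or TPR, kept its brightest. The number of arrays limits the precision.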

Additional observations from a re-analysis of the deposited data

Results flagged for a closer look

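A probe set that the comparison of genes did not use, because it is annotated to both POM121 and POM121C, fell by 0.29 on the log2 scale (SE 0.066, limma adjusted p = 0.0108 over probe sets). Its signals were 1302, 1185 and 1086 in control arrays and 950, 960 and 987 in NFX1-91 shRNA arrays, with no overlap. It cannot be assigned to either gene. Of the other probe sets shared with a listed gene, that of NUTF2 and its pseudogene read -0.11 and that of IL4I1 and NUP62 -0.19, and neither passed.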

How the results depend on the processing

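Over all alternatives the number of genes called stayed within 1.5 times that reported. Between 13 and 19 of the 54 genes were higher and between 8 and 12 lower with an array left out; without a variance trend 11 were higher and 9 lower. Of the 27 called genes 16 kept call and direction in all 16 alternatives, among them all 6 with an absolute log2 fold change of at least 0.5, and 9 of the 27 others passed in some alternative. However, 13 called genes had 1 probe set, among them NUP58, XPO4, IPO8 and IPO4. For these the alternatives that change the probe set could not alter the fold change. Directions turned with the choice of probe set: with shared probe sets left out CSE1L read -0.02, KPNB1 0.06, NUP214 0.33, NUP54 -0.12, RAN -0.28, RANBP3 0.23 and THOC5 -0.44, and with the mean of probe sets NUP214 read 0.01 and RAN -0.08. Of these turned values only that of RAN with shared probe sets left out passed (adjusted p = 0.000499), and the probe sets then read for NUP214 and NUP54 lay below 16, too dim to read a direction. Of 7 called genes that lost the call with an array left out, 6 did so without control array 2, and of 5 others that then passed, 4 did so without control array 1. The cause was not tested. NUP58 against NUP54 and NUP62, a comparison set after NUP58 was seen to rise, ran from 1.49 to 1.75 (exact permutation p = 0.1 throughout, the smallest possible). With the replicate block 16 of the 54 genes were higher and 11 lower, and 1628 and 1970 of all genes. Same-numbered arrays did not deviate together (correlations of -0.0296, 0.0791 and -0.0232), and 2 of 6 arrays correlated best with their own number. These values cannot tell whether same-numbered arrays were prepared together.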
